A study of Mus musculus with 8 samples.

Results

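The proteasome genes described here code for the constitutive core particle, the regulatory particle with its assembly chaperones, and the alternative activators. They comprise 38 genes, Psma1 to Psma7, Psmb1 to Psmb7, Psmc1 to Psmc6, Psmd1 to Psmd14 and Psme1 to Psme4. All non-control probe sets annotated to exactly 1 of these genes were taken, 82 of 45037, and 79 of them passed a low filter on intensity. They covered 37 of the 38 genes, out of 18193 genes with a probe set of their own. The one probe set for Psme2 also names Psme2b and is not reported here. The membership rests on gene symbols and uses no measured value, but it was chosen with earlier results of these data known.

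The arrays compared 4 samples of SThdh111/111 cells with 4 samples of SThdh7/7 cells. Both are mouse lines derived from embryonic striatal precursors and immortalised with a conditional SV40 large T antigen, as is generally known of them. SThdh111/111 carries, on both knock-in copies of the huntingtin gene Htt, a long CAG repeat of the kind that causes Huntington's disease, and SThdh7/7 carries a short repeat on both copies. No treatment, time or age appears in the labels. Total RNA was hybridised to Affymetrix whole-genome mouse arrays with 1 biotin label. Whether the 4 samples of a line came from separate cultures is not stated, and the p-values therefore reflect sample-to-sample spread that may be technical. With 1 line for each genotype, the repeat length and any other difference between the lines cannot be told apart. A lower array signal cannot tell less RNA per cell from fewer cells of a type.

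Protein turnover by the proteasome has 2 working parts. The core particle is a barrel of alpha rings, which gate the entrance, and beta rings, of which Psmb5, Psmb6 and Psmb7 carry the cutting sites. The regulatory particle caps the barrel: its base, a ring of Psmc ATPases on the scaffolds Psmd1 and Psmd2, unfolds the substrate, and its lid holds Psmd14, the enzyme that removes ubiquitin. Psme1 and Psme2 form an interferon-induced cap, Psme3 a nuclear cap and Psme4 a large single-chain cap, and these caps work without ATP. When proteasome activity falls short, the transcription factor encoded by Nfe2l1 raises the genes of the whole particle through antioxidant response elements, and misfolded huntingtin with a long repeat is among the loads this system handles in striatal neurons.

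Values below are log2 of the deposited intensity, and differences are SThdh111/111 minus SThdh7/7 on that scale. A gene is represented by its probe set with the highest mean. Calls are at an adjusted p under 0.05 from limma with Benjamini-Hochberg adjustment over all 41409 kept probe sets. Array medians were 136.2 to 147.0 intensity units in SThdh111/111, against 173.9 and 174.0 in SThdh7/7 samples 1 and 2 and 137.7 and 139.7 in samples 3 and 4. SThdh7/7 samples 1 and 2 thus stand apart, and calls on members that change without them are given with the gene. Arrays correlated at 0.922 to 0.924 within SThdh111/111 and at 0.906 to 0.927 within SThdh7/7, against 0.866 to 0.885 between the lines, over all kept probe sets. Htt itself averaged 8.71 ± 0.30 in SThdh111/111 and 9.13 ± 0.18 in SThdh7/7 (SD, n = 4 each), a difference of -0.42 that missed the threshold (limma, adjusted p = 0.0837). The probe sets do not read repeat length, so Htt does not check the labels.

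A floor was set at the 95th percentile of the bacterial control probe sets on the highest array, 130.0 intensity units or 7.02 on the log2 scale. The striatal neuron markers Ppp1r1b and Drd1 and the neuronal markers Snap25 and Tubb3 lay below it on all arrays, while the progenitor marker Vim averaged 15.50 in both lines. Of 11 striatal projection neuron markers 9 were kept, and 2, Foxp1 and Rgs9, were above the floor on all arrays of both lines. In that list Penk (9.63 in SThdh111/111, 6.67 in SThdh7/7) and Foxp1 (10.68 in SThdh111/111, 10.39 in SThdh7/7) were higher, Rgs9 (8.65 in SThdh111/111, 9.35 in SThdh7/7) was lower and 6 were not called. Of 5 pan-neuronal genes Map2 (10.34 in SThdh111/111, 10.86 in SThdh7/7) was lower and above the floor throughout, and 4 were not called. Of 4 astrocyte genes 1 was higher and 1 lower. Of 5 mesenchymal genes 4 were higher in SThdh111/111, and their summed intensity was 62186 to 74690 in SThdh111/111 samples, against 8310 to 9723 in SThdh7/7 samples. Dcn and Lum, of that list, were below the floor on every SThdh7/7 array. Of 4 progenitor genes 3 were lower in SThdh111/111, and Pax6 was below the floor on every SThdh111/111 array. Of 6 microglial and immune genes, Csf1r was above the floor on all arrays and higher in SThdh111/111 (9.32, against 8.84 in SThdh7/7), Cx3cr1 and P2ry12 were above it on 3 and 1 of the SThdh7/7 arrays and on 0 of SThdh111/111, and Aif1, Ptprc and Itgam were below it throughout. The part of these markers in the proteasome results was not tested.

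Of the 37 genes, 18 were lower in SThdh111/111, 4 were higher and 15 were not called. The lower share was 48.6%, against 15.9% of all 17389 genes tested, and the higher share was 10.8%, against 13.1% of all genes. Calls are more frequent among bright genes, and all 37 members had a mean log2 above 9. Among genes with a mean of at least 9, 26.2% were called lower and 23.5% higher, and at a mean of at least 11 the shares were 28.2% lower and 31.9% higher. As deposited, the members' higher share was thus below these shares, and their lower share above them. The median difference was -0.19 over the members, against -0.09 over all genes and -0.02 over the genes with a mean of at least 9. In 19 members the 4 values of one line did not overlap the 4 of the other. No share of such genes over the whole array stands beside this count, so it only describes the members. The SD within a line ran from 0.013 to 0.29 with a median of 0.091.

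**Figure D1:**
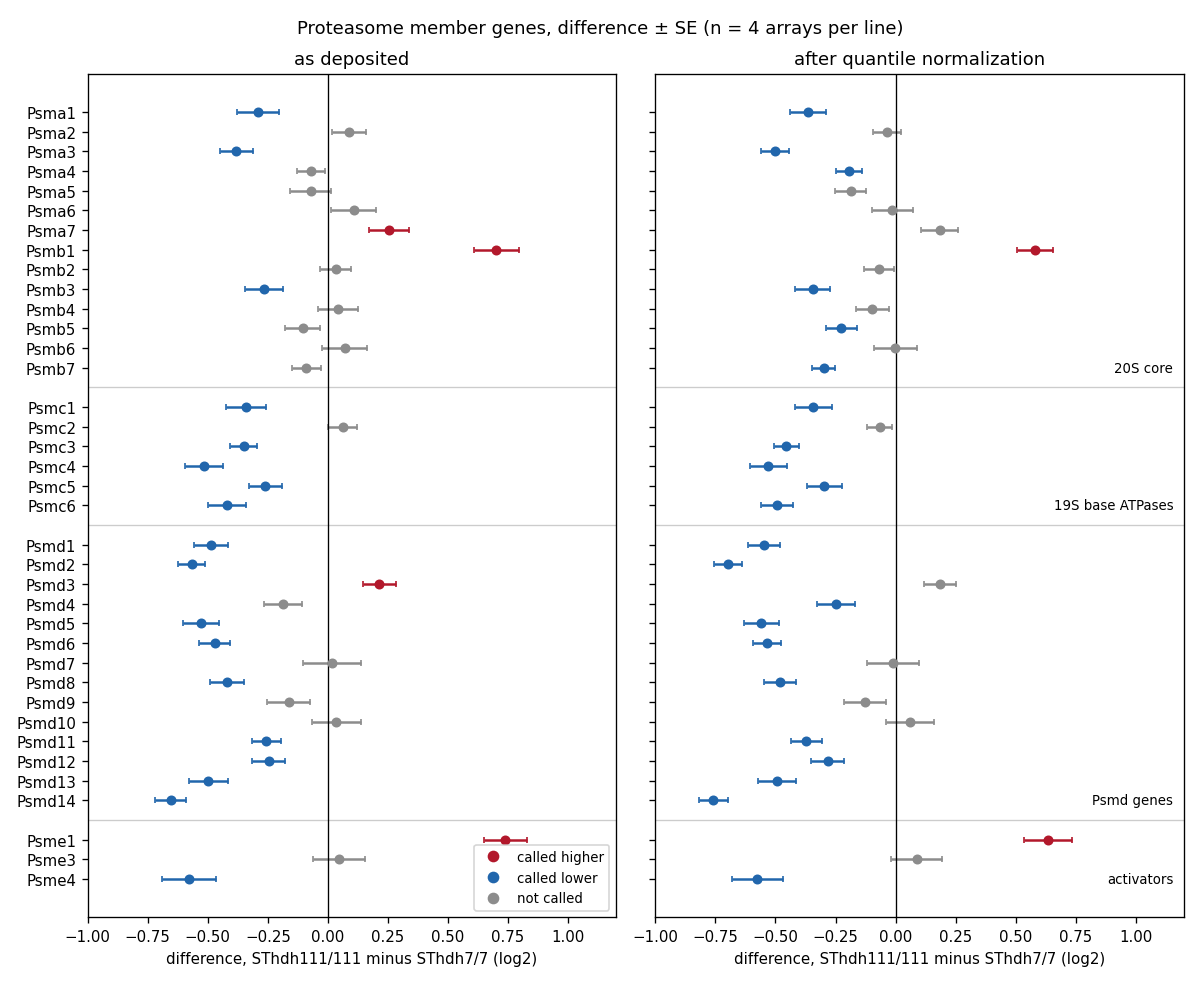
Difference in log2 intensity (SThdh111/111 minus SThdh7/7) with its standard error for the 37 genes, grouped by the part of the proteasome, as deposited and after quantile normalization; n = 4 arrays for each line. As deposited, Psmd14 was at -0.65 and Psme1 at 0.74, and the medians were -0.35 for the base ATPases and -0.02 for the core.

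The falls lay mostly in the regulatory particle. Of its 17 structural subunits among the members 13 were lower in SThdh111/111 (76.5%), 1 was higher and 3 were not called, with a median of -0.35. The core had 3 lower and 2 higher of 14 genes, with a median of -0.02. Whether the 2 particles differ in their shares was not tested. The mean deviation of each particle's genes was also taken array by array, since the difference between the particles on 1 array does not depend on how arrays are scaled to each other by a single factor. Regulatory particle minus core was -0.11, -0.12, -0.21 and -0.20 in SThdh111/111 samples 1 to 4, against 0.25, 0.13, 0.12 and 0.13 in SThdh7/7 samples 1 to 4. The lines did not overlap in this measure, with an SD of 0.05 in SThdh111/111 and 0.06 in SThdh7/7 (n = 4 each). Because deviations are taken from each gene's mean over all arrays, the 2 line means are equal and opposite by construction, and the gap between the lines is what the values show. This is a description, with no test, because the particles were set apart with the values known.

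**Figure D2:**
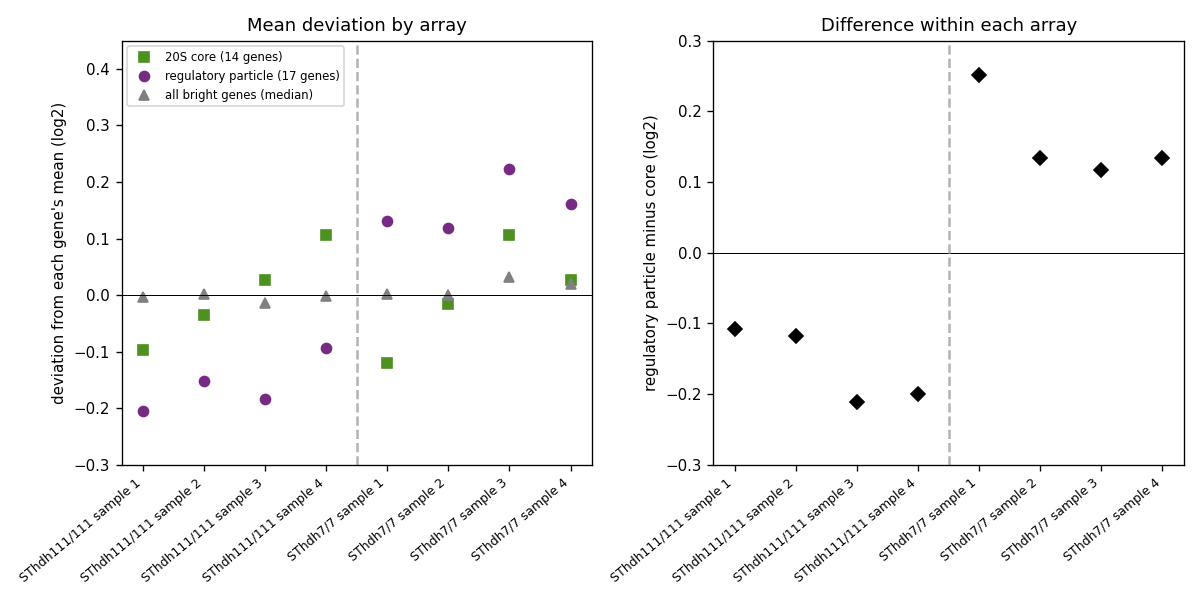
Left, mean deviation of log2 intensity from each gene's mean over the 8 arrays, for 14 core genes and 17 regulatory particle genes, with the median over all bright genes; right, regulatory particle minus core on each array. The right panel runs from -0.21 to -0.11 in SThdh111/111 and from 0.12 to 0.25 in SThdh7/7, while the core deviations in the left panel overlap between the lines.

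The number of falls depended on how the arrays were scaled. After quantile normalization 22 of 37 members were lower (59.5%) and 2 higher, against 27.6% lower and 22.3% higher among genes with a mean of at least 9. At a mean of at least 11 the shares were 35.9% lower and 25.4% higher. The core then had 6 of 14 genes lower (42.9%), and the regulatory particle 14 of 17 (82.4%). With each array centred on its median over all probe sets, 2 members were lower (5.41%), Psmd2 and Psmd14, and 2 were higher. Of genes with a mean of at least 9, 12.02% were then lower and 23.42% higher, and at 11 the shares were 11.50% and 28.24%. The members' lower share was thus below that of bright genes under this centring. In the regulatory particle 2 of 17 genes were lower (11.76%), near the shares of bright genes. That centring moved the median of bright genes to 0.13 and the core median to 0.13, so the core changed sign, while the base stayed at -0.19 and the Psmd genes at -0.18. With arrays centred on the median of bright probe sets, 18 were lower (48.6%) and 4 higher (10.8%). Of genes with a mean of at least 9, 24.4% were then lower and 25.3% higher, and at 11 the shares were 26.2% and 34.3%. Without SThdh7/7 samples 1 and 2, 17 were lower (45.9%) and 2 higher, against 24.1% lower at a mean of at least 9 and 26.9% at 11. With median centring as well 14 were lower (37.8%) and 2 higher, against 22.8% and 24.7% lower. The centring on bright probe sets and the combined setting were chosen after seeing the data.

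Upstream sequence was examined because antioxidant response elements are the known route to joint control of these genes. The RefSeq promoter table for GRCm38.p6 held 32 of the 38 genes, with 35 promoters, and the 250 bases before each start were searched on both strands. The element core TGACNNNGC was found in 5 of the 32 genes (15.6%), against 11.5% of 27025 genes with a promoter in the table. These 5 were Psmb5, Psmb6, Psmc6, Psmd9 and Psmd12. The CCAAT box was found in 12 (37.5%), against 37.5% of all genes. The interferon-stimulated response element core was found in 3 (9.38%), against 3.46% of all genes, and the gamma-activated motif TTCNNNGAA in 0, against 8.13%. No match of one motif overlapped a match of another in the members. A match describes letters only, and a missing match says nothing about binding.

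Shown here are 3 promoters with the element core, from a core subunit that was not called (Psmb5), a base ATPase that fell (Psmc6) and a lid subunit that fell (Psmd12), and then those of the lid enzyme Psmd14 and of the activator Psme1, the members with the lowest and the highest difference. All are 250 bases of GRCm38.p6 from RefSeq, written 5′ to 3′ on the strand of the gene. Capitals mark the element core, or its reverse complement, in the first 3, and the reverse complement of a CCAAT box in Psmd14. Psme1 held none of the 4 motifs and has no capitals.
Psmb5 (chr14:54617996-54618245, minus strand): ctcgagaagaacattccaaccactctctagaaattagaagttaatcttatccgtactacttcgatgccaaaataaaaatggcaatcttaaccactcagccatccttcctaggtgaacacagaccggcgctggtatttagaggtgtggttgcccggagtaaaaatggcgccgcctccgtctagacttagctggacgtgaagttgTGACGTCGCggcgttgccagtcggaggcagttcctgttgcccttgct
Psmc6 (chr14:45329574-45329823, plus strand): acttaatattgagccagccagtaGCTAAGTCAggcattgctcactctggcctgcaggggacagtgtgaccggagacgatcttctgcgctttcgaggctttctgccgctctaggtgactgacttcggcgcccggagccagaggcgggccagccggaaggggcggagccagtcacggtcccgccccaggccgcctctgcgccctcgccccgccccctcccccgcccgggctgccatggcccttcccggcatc
Psmd12 (chr11:107479278-107479527, plus strand): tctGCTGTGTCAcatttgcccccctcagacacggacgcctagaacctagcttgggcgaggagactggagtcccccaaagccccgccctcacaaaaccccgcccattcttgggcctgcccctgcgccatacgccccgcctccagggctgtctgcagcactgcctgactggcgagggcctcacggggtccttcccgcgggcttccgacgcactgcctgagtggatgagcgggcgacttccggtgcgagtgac
Psmd14 (chr2:61711444-61711693, plus strand): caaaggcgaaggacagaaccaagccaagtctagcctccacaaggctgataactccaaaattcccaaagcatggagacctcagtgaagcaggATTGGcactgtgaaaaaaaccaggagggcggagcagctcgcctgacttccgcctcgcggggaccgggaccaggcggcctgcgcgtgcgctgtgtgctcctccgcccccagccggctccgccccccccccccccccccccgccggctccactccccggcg
Psme1 (chr14:55578244-55578493, plus strand): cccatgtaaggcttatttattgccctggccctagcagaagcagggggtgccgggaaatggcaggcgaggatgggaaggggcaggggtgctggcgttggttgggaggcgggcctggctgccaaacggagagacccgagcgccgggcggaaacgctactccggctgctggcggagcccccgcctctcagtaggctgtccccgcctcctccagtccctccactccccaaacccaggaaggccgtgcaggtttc

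The element core in Psmb5 lies 47 to 39 bases before the start, in Psmc6 227 to 219 bases and in Psmd12 247 to 239 bases before it, the last pair on the opposite strand. Of the 5 genes with an element core, Psmc6 and Psmd12 were lower in SThdh111/111, and Psmb5, Psmb6 and Psmd9 were not called.

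Of the 8 lid subunits among the members, 6 were lower in SThdh111/111, 1 was higher and 1 was not called. Psmd14 (probe set 1421751_a_at), the metalloprotease that strips ubiquitin chains from substrates as they enter, measured 11.95, 11.90, 11.80 and 12.01 in SThdh111/111, against 12.52, 12.57, 12.66 and 12.51 in SThdh7/7. Every SThdh111/111 value lay below every SThdh7/7 value. Psmd14 fell by 0.65 ± 0.07 (SE, n = 4 each) to 63.5% of the SThdh7/7 level (limma, adjusted p = 4.66e-06), the largest fall among the 37 members. After quantile normalization its difference was -0.76, and with median-centred arrays -0.50 (adjusted p = 0.0164). Its inactive partner Psmd7 measured 11.30, 11.21, 11.24 and 11.40 in SThdh111/111, against 11.03, 11.00, 11.48 and 11.56 in SThdh7/7. The SThdh7/7 values were split, with samples 1 and 2 below and samples 3 and 4 above every SThdh111/111 value, and the difference was 0.02 ± 0.12 (adjusted p = 0.948).

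The other lid subunits among the members are scaffold proteins that tie the lid to the base and the core. Psmd6 (probe set 1423697_at) measured 11.32, 11.46, 11.35 and 11.52 in SThdh111/111, against 11.88, 11.87, 11.93 and 11.85 in SThdh7/7, and fell by 0.47 ± 0.06 at this probe set (adjusted p = 9.65e-05), while a second one was called higher, as described further on. Psmd8 measured 11.504, 11.650, 11.562 and 11.461 in SThdh111/111, against 11.802, 11.988, 12.070 and 11.998 in SThdh7/7, and fell by 0.42 ± 0.07 (adjusted p = 0.000696). Neither gene's lines overlapped. Psmd13 measured 10.23, 10.38, 10.06 and 10.32 in SThdh111/111, against 10.73, 10.74, 10.75 and 10.77 in SThdh7/7, and fell by 0.50 ± 0.08 to 70.8% of the SThdh7/7 level (adjusted p = 0.000464). Its SThdh7/7 values lay close together, well above all of SThdh111/111.

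Psmd11, which clamps the lid onto the core's alpha ring and whose amount limits particle assembly in human stem cells, measured 12.12, 12.18, 12.18 and 12.28 in SThdh111/111, against 12.48, 12.48, 12.47 and 12.35 in SThdh7/7. The lines did not overlap, and it fell by 0.26 ± 0.06 (adjusted p = 0.00682). Psmd12, another lid scaffold, measured 11.17, 11.38, 11.29 and 11.34 in SThdh111/111, against 11.59, 11.48, 11.60 and 11.49 in SThdh7/7. It fell by 0.25 ± 0.07 (adjusted p = 0.0181), but without SThdh111/111 sample 1 the adjusted p was 0.0624. Psmd3 ran the other way: it measured 11.05, 11.08, 11.20 and 11.19 in SThdh111/111, against 10.94, 10.83, 10.99 and 10.90 in SThdh7/7. All 4 SThdh111/111 values were above the SThdh7/7 values, and it rose by 0.21 ± 0.07 (adjusted p = 0.0415). The call on Psmd3 was lost after quantile normalization (0.18, adjusted p = 0.0713), with the sample numbers as a replicate block (adjusted p = 0.0618), and without SThdh111/111 sample 2, 3 or 4 or SThdh7/7 sample 1, 2 or 4. Without SThdh7/7 samples 1 and 2 together it was 0.19 (adjusted p = 0.125).

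Both base scaffolds, which hold the ATPase ring and dock ubiquitin receptors, were lower in SThdh111/111. Psmd2 measured 12.35, 12.27, 12.35 and 12.41 in SThdh111/111, against 12.92, 12.92, 12.93 and 12.87 in SThdh7/7. The lines were well apart, and Psmd2 fell by 0.57 ± 0.06 to 67.5% of the SThdh7/7 level (adjusted p = 4.4e-06). Psmd1 measured 11.38, 11.37, 11.50 and 11.42 in SThdh111/111, against 11.95, 11.74, 11.97 and 11.96 in SThdh7/7. It fell by 0.49 ± 0.07 to 71.4% (adjusted p = 0.000138), again without overlap. Psmd4, a ubiquitin receptor of the base, measured 11.54, 11.64, 11.63 and 11.88 in SThdh111/111, against 11.93, 11.89, 11.90 and 11.73 in SThdh7/7. SThdh111/111 sample 4 and SThdh7/7 sample 4 crossed, and the difference was -0.19 ± 0.08 (adjusted p = 0.12). Without SThdh111/111 sample 4 it was -0.26 (adjusted p = 0.0246), and after quantile normalization -0.25 (adjusted p = 0.0394).

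Among the 6 ATPases of the base, 5 were lower in SThdh111/111, with falls of 0.26 to 0.51. Without SThdh7/7 samples 1 and 2, 3 of the 6 were lower, and Psmc5 lost its call. For Psmc4 another probe set then became the brightest, with a difference of -0.56 (limma, adjusted p = 0.0627). At the probe set whose values follow, Psmc4 stayed lower without those samples (-0.51, limma, adjusted p = 0.00299). Psmc4 measured 10.48, 10.59, 10.34 and 10.66 in SThdh111/111, against 11.05, 11.02, 11.02 and 11.04 in SThdh7/7, and fell by 0.51 ± 0.08 to 70.0% of the SThdh7/7 level (adjusted p = 0.000267). Psmc6 measured 11.52, 11.62, 11.67 and 11.67 in SThdh111/111, against 11.94, 11.90, 12.22 and 12.11 in SThdh7/7, and fell by 0.42 ± 0.08 (adjusted p = 0.0012). Each SThdh111/111 array was below each SThdh7/7 array in both genes. Psmc3, whose tail opens the gate of the core, measured 12.04, 12.08, 12.04 and 12.03 in SThdh111/111, against 12.32, 12.42, 12.41 and 12.43 in SThdh7/7, and fell by 0.35 ± 0.06 (adjusted p = 0.000356). Psmc1 measured 10.46, 10.35, 10.31 and 10.45 in SThdh111/111, against 10.64, 10.63, 10.91 and 10.76 in SThdh7/7, and fell by 0.34 ± 0.08 (adjusted p = 0.00808). Psmc5 had the narrowest margin among the ATPases that fell.

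Psmc5 measured 11.07, 11.18, 11.17 and 11.22 in SThdh111/111, against 11.55, 11.40, 11.39 and 11.35 in SThdh7/7, and fell by 0.26 ± 0.07 (adjusted p = 0.0136). Without SThdh7/7 samples 1 and 2 its adjusted p was 0.0628. Psmc2 was the ATPase not called at its brightest probe set, with 12.66, 12.68, 12.78 and 12.76 in SThdh111/111, against 12.56, 12.70, 12.70 and 12.68 in SThdh7/7, and a difference of 0.06. Leaving out SThdh7/7 sample 2 made another probe set of Psmc4 the brightest, and there the difference was -0.36 (adjusted p = 0.251).

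**Figure D3:**
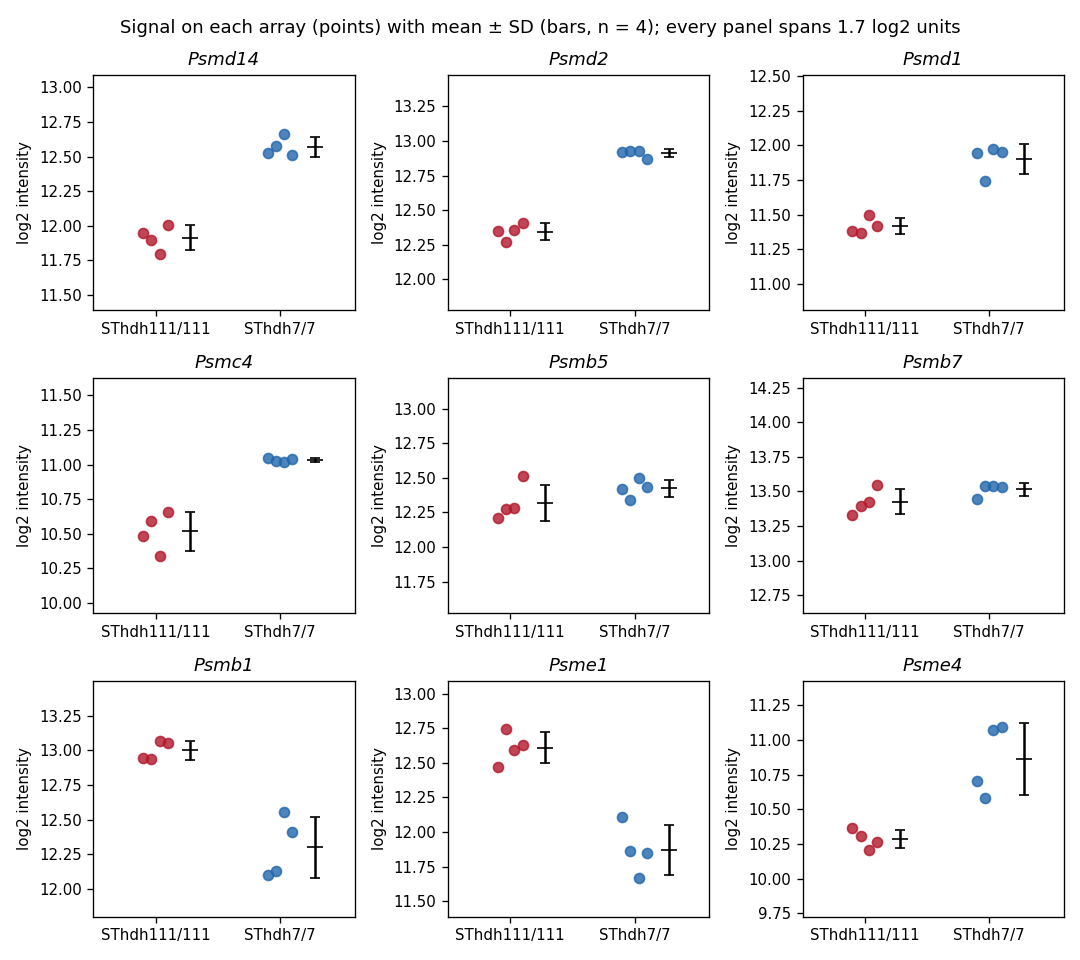
Log2 intensity on each array for Psmd14, Psmd2, Psmd1, Psmc4, Psmb5, Psmb7, Psmb1, Psme1 and Psme4, with SThdh111/111 left of SThdh7/7. Psmd14 sits at 11.80 to 12.01 in SThdh111/111 and 12.51 to 12.66 in SThdh7/7, while the values of the catalytic subunits Psmb5 and Psmb7 overlap between the lines.

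None of the 3 catalytic subunits of the core was called as deposited. Psmb5, the chymotrypsin-like site, measured 12.21, 12.27, 12.28 and 12.51 in SThdh111/111, against 12.42, 12.34, 12.50 and 12.44 in SThdh7/7. The difference was -0.11, with a 95% interval of -0.26 to 0.05 (adjusted p = 0.366). Psmb6, the caspase-like site, measured 11.78, 11.69, 11.93 and 12.11 in SThdh111/111, against 11.73, 11.85, 11.97 and 11.69 in SThdh7/7. Its difference was 0.07, with an interval of -0.13 to 0.27. Psmb7, the trypsin-like site, measured 13.33, 13.40, 13.42 and 13.55 in SThdh111/111, against 13.44, 13.54, 13.54 and 13.53 in SThdh7/7, a difference of -0.09 with an interval of -0.22 to 0.04. All 3 overlapped between the lines. After quantile normalization Psmb5 was at -0.23 (adjusted p = 0.0222) and Psmb7 at -0.30 (adjusted p = 0.000499), both called lower, and Psmb6 was not called. These 3 subunits are the ones that interferon-induced subunits replace.

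Among the structural core subunits, Psmb1, a beta ring protein without a cutting site, had the largest rise. It measured 12.94, 12.94, 13.07 and 13.05 in SThdh111/111, against 12.10, 12.13, 12.56 and 12.41 in SThdh7/7, with no overlap. Psmb1 rose by 0.70 ± 0.09 to 162.5% of the SThdh7/7 level (adjusted p = 7.74e-05), but its other probe sets above the floor were at 0.36 (adjusted p = 0.281) and -0.42 (adjusted p = 0.259). Psma7, of the alpha ring, measured 11.77, 11.97, 12.03 and 12.06 in SThdh111/111, against 11.52, 11.78, 11.82 and 11.70 in SThdh7/7, and rose by 0.25 ± 0.08 (adjusted p = 0.0442). The lines overlapped in Psma7, and the call was lost after quantile normalization (0.18, adjusted p = 0.126), with array weights (adjusted p = 0.0501) and without SThdh111/111 sample 2, 3 or 4 or SThdh7/7 sample 1 or 4. Without SThdh7/7 samples 1 and 2 together it was 0.20 (adjusted p = 0.152).

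Psma3, of the alpha ring, was the core gene with the largest fall. It measured 12.22, 12.36, 12.31 and 12.45 in SThdh111/111, against 12.61, 12.71, 12.71 and 12.84 in SThdh7/7, and fell by 0.38 ± 0.07 to 76.7% of the SThdh7/7 level (adjusted p = 0.000954). Psma1, also of the alpha ring, measured 11.70, 11.68, 11.77 and 11.85 in SThdh111/111, against 11.83, 11.92, 12.22 and 12.18 in SThdh7/7, and fell by 0.29 ± 0.09 (adjusted p = 0.031). Psmb3, a beta ring protein without a cutting site, measured 11.72, 11.70, 11.98 and 11.88 in SThdh111/111, against 11.97, 12.07, 12.22 and 12.07 in SThdh7/7, and fell by 0.26 ± 0.08 (adjusted p = 0.0266). In Psma1 and Psmb3 one SThdh111/111 array reached above the lowest SThdh7/7 array, whereas Psma3 did not overlap. Psma1 lost its call without SThdh111/111 sample 1, 2 or 3 or SThdh7/7 sample 3 or 4 (adjusted p 0.0587 to 0.0895), and Psmb3 without SThdh111/111 sample 1 or 2 or SThdh7/7 sample 3 (0.0773 to 0.0886). The other 6 core genes, Psma2, Psma4, Psma5, Psma6, Psmb2 and Psmb4, had differences of -0.07 to 0.11 and were not called. Of these, Psma4 was called lower after quantile normalization (-0.19, adjusted p = 0.0245). Psma5 was called lower without SThdh7/7 samples 1 and 2 (-0.22, adjusted p = 0.0484), and the core then had 4 lower and 1 higher of 14.

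The activators went different ways. Psme1 (probe set 1417056_at), a subunit of the interferon-induced cap, measured 12.47, 12.74, 12.59 and 12.63 in SThdh111/111, against 12.11, 11.86, 11.67 and 11.85 in SThdh7/7. It rose by 0.74 ± 0.09 to 166.9% of the SThdh7/7 level (adjusted p = 3.04e-05), with no overlap, and by 0.63 after quantile normalization (adjusted p = 0.000455). Psme4, the large single-chain cap that also binds acetylated histones, measured 10.36, 10.31, 10.21 and 10.26 in SThdh111/111, against 10.71, 10.58, 11.07 and 11.10 in SThdh7/7. SThdh7/7 samples 3 and 4 were the higher pair, and all 4 SThdh7/7 values were above SThdh111/111. Psme4 fell by 0.58 ± 0.11 to 66.9% (adjusted p = 0.00172), and its other probe sets above the floor were called lower as well, at -0.51 (adjusted p = 0.0101) and -0.49 (adjusted p = 0.000918). Psme3, the nuclear cap, measured 9.61, 9.51, 9.55 and 9.22 in SThdh111/111, against 9.38, 9.41, 9.41 and 9.51 in SThdh7/7, a difference of 0.05 ± 0.11 (adjusted p = 0.821).

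Among the 3 chaperones that assemble the base and are later released, Psmd5 was lower in SThdh111/111 and Psmd9 and Psmd10 were not called. Psmd5 measured 10.98, 11.00, 10.74 and 10.95 in SThdh111/111, against 11.44, 11.52, 11.47 and 11.36 in SThdh7/7. The lines did not overlap, and it fell by 0.53 ± 0.08 to 69.3% of the SThdh7/7 level (adjusted p = 0.000138). Psmd9 measured 9.72, 9.67, 9.71 and 9.85 in SThdh111/111, against 9.80, 9.89, 10.02 and 9.88 in SThdh7/7, a difference of -0.16 ± 0.09 (adjusted p = 0.242). Psmd10 differed by 0.04 ± 0.10 (adjusted p = 0.862).

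Probe sets of 1 gene did not always move together. Of the 79 kept probe sets 24 were lower and 6 higher in SThdh111/111, against 12.6% lower and 9.87% higher of all probe sets. Of the 79, 60 lay above the floor on all 8 arrays, and 23 of these were lower and 6 higher. No share over all probe sets above the floor stands beside these counts, so they only describe the members. In 15 genes at least 2 probe sets were above the floor: 6 genes had the same call at each of them, 8 were called at some, and Psmd6 had opposite calls. The 6 were Psma5, Psma6, Psmb3, Psmb4, Psmd4 and Psme4. The 8 were Psma7, Psmb1, Psmc2, Psmc4, Psmc6, Psmd11, Psmd13 and Psme3.

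The second Psmd6 probe set (1423696_a_at) measured 11.06, 11.11, 11.13 and 11.20 in SThdh111/111, against 8.77, 8.56, 9.38 and 9.74 in SThdh7/7. It was higher in SThdh111/111 by 2.02 ± 0.20 (adjusted p = 4.46e-06), while the brightest probe set was lower. The direction for Psmd6 therefore depends on the probe set. The second Psmc2 probe set (1426611_at) measured 12.69, 12.76, 12.70 and 12.66 in SThdh111/111, against 12.17, 12.09, 12.31 and 12.23 in SThdh7/7, and was higher by 0.50 ± 0.06 (adjusted p = 3.51e-05). The second Psme3 probe set (1418079_at) measured 9.08, 9.34, 9.13 and 9.22 in SThdh111/111, against 9.67, 9.66, 9.64 and 9.53 in SThdh7/7, and was lower, with a difference of -0.43 ± 0.10 (adjusted p = 0.00629). These 3 genes thus carry a call that the brightest probe set lacks or contradicts. For Psmd11 the other 3 probe sets above the floor gave 0.20, -0.12 and -0.14, none called, and for Psmd13 -0.27 (adjusted p = 0.0558) and -0.68 (adjusted p = 0.044).

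**Figure D4:**
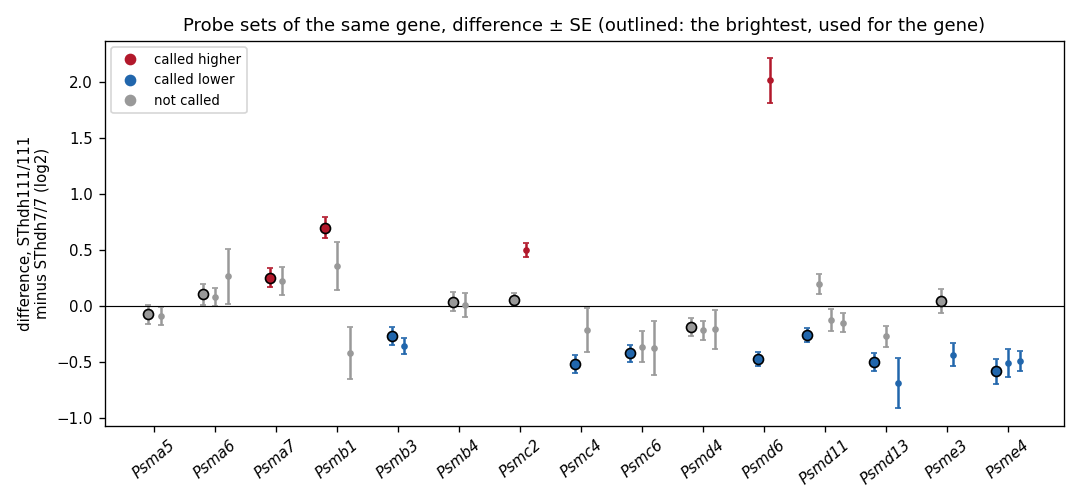
Difference in log2 intensity (SThdh111/111 minus SThdh7/7) with its standard error for every probe set above the floor on all 8 arrays, for the 15 genes that have at least 2; n = 4 arrays for each line. The 2 probe sets of Psmd6 lie at -0.47 and 2.02, and the 3 of Psme4 at -0.58 to -0.49.

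Genes that work with the proteasome were read from 5 lists, of which 38 genes were kept: 6 were higher (15.8%) and 10 lower (26.3%) in SThdh111/111. Among all genes tested, 13.1% were higher and 15.9% lower, and among those with a mean of at least 9, 23.5% and 26.2%. The lower share over the lists was thus above that of all genes and near that of bright genes. The lists also hold dim genes, such as Psmb11 and Psma8. Of 5 inducible and tissue-specific subunits 3 were higher. Psmb8 and Psmb9, which replace Psmb5 and Psmb6, were above the floor on 1 of 4 SThdh7/7 arrays each. Psmb8 measured 11.15, 11.54, 11.02 and 11.40 in SThdh111/111, against 6.92, 5.45, 6.57 and 7.32 in SThdh7/7, and with values under the floor set to it the difference was 4.18. Psmb9, treated likewise, differed by 3.87. Psmb10, the replacement of Psmb7, measured 11.27, 11.42, 11.46 and 11.61 in SThdh111/111, against 9.79, 9.68, 10.11 and 9.92 in SThdh7/7, and rose by 1.57 ± 0.10 (adjusted p = 6.65e-08). The constitutive subunits that these 3 replace were not called as deposited, as given above.

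Of 5 dedicated assembly chaperones of the core, Psmg1 was lower (-0.27, adjusted p = 0.0308) and the rest, Pomp included, were not called; leaving out SThdh111/111 sample 2 or 3 or SThdh7/7 sample 2, 3 or 4 raised the adjusted p of Psmg1 to between 0.0616 and 0.0936. Of 8 proteasome-associated proteins 4 were lower and 2 higher. Uchl5, a deubiquitinase docked on the regulatory particle, measured 9.49, 9.45, 9.19 and 9.48 in SThdh111/111, against 10.45, 10.41, 10.48 and 10.55 in SThdh7/7, and fell by 1.07 ± 0.09 (adjusted p = 1.21e-06). Txnl1, a thioredoxin-like protein bound near Psmd14, measured 11.90, 11.85, 11.74 and 11.93 in SThdh111/111, against 12.66, 12.69, 12.68 and 12.75 in SThdh7/7, and fell by 0.84 ± 0.06 (adjusted p = 1.92e-07). Usp14, the other docked deubiquitinase, measured 10.62, 10.55, 10.58 and 10.43 in SThdh111/111, against 11.20, 11.20, 10.99 and 11.11 in SThdh7/7, and fell by 0.59 ± 0.08 (adjusted p = 6.02e-05). In these 3 partners of the regulatory particle all SThdh111/111 values lay below the SThdh7/7 values. The ligase Ube3c was lower too (-0.36, adjusted p = 0.00807). The 2 that rose were the inhibitor Psmf1 (0.43 ± 0.08, adjusted p = 0.00152) and Akirin2, which brings the proteasome into the nucleus (0.39 ± 0.06, adjusted p = 0.000255). Sem1 differed by 0.20 ± 0.07 without overlap between the lines and was not called (adjusted p = 0.0618). Without SThdh7/7 sample 3 Sem1 was called higher (0.24, adjusted p = 0.0447), and after quantile normalization it was at 0.07, not called.

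Of 8 ubiquitin shuttles and segregase genes 2 were lower, Ubqln1 (-0.30, adjusted p = 0.00274) and Ubqln2 (-0.23, adjusted p = 0.0442), and the segregase Vcp was not called. Ubqln2 was not called without SThdh111/111 sample 1, 2 or 4 or SThdh7/7 sample 1, 2 or 4, nor without SThdh7/7 samples 1 and 2 together (adjusted p = 0.0534). Of 12 ubiquitin, E1 and regulator genes 1 was higher and 3 were lower. Nfe2l2, a factor that acts on antioxidant response elements in oxidative stress, measured 11.83, 11.77, 11.92 and 11.84 in SThdh111/111, against 12.28, 12.16, 12.62 and 12.60 in SThdh7/7, and fell by 0.58 ± 0.10 (adjusted p = 0.000531). Nfe2l1, the factor for the proteasome rebound, differed by -0.17 ± 0.07 and was not called (adjusted p = 0.0946), though it was after quantile normalization (-0.21, adjusted p = 0.0242) and without SThdh7/7 samples 1 and 2 (-0.25, adjusted p = 0.0214). Nfyb, a subunit of the CCAAT-binding factor, was lower (-0.47, adjusted p = 0.015), though not without SThdh7/7 samples 1 and 2 (adjusted p = 0.0619), and Stat3, a signal transducer, was higher by 1.84 ± 0.07 (adjusted p = 2.07e-10). Maff, a small partner of the Nfe2l factors, was called lower, but it was above the floor on 0 of 4 SThdh111/111 arrays and 2 of 4 SThdh7/7 arrays.

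**Figure D5:**
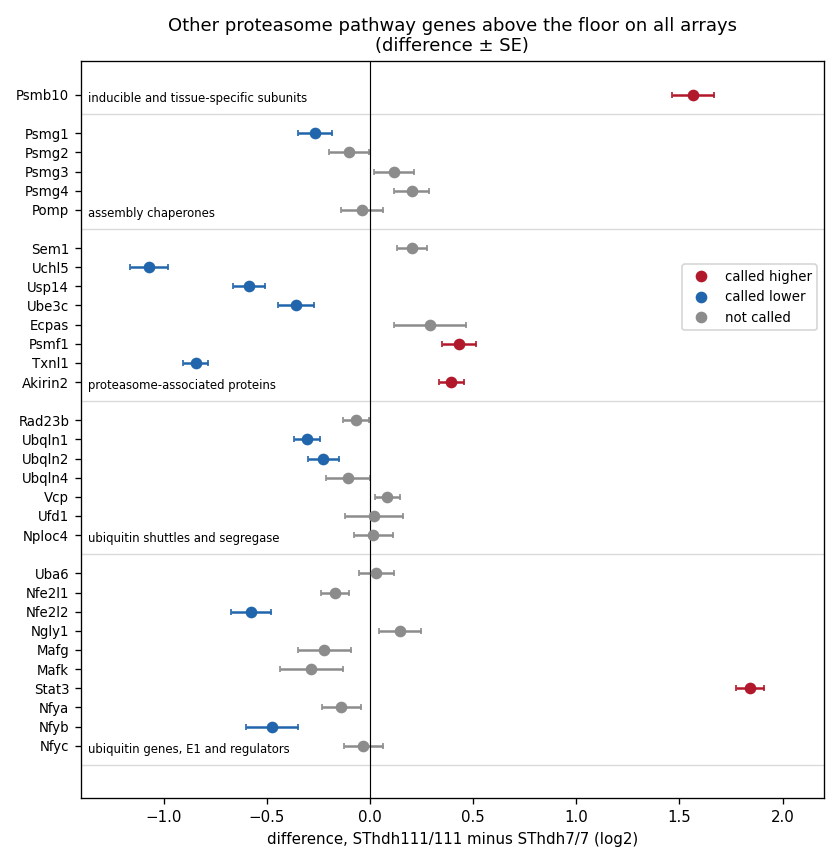
Difference in log2 intensity (SThdh111/111 minus SThdh7/7) with its standard error for genes of the 5 lists that were above the floor on all 8 arrays; n = 4 arrays for each line. Uchl5 lies at -1.07, Txnl1 at -0.84 and Stat3 at 1.84.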

How the data were processed

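Arrays were grouped by the sample titles. The deposited intensity values are linear, with 1 per probe set and array, and per the values their mean after trimming 2% at each end was 500.0 on all arrays. The only tool in the submitters' processing notes is GCRMA, without a version, and the values lack its form, so the tool is not settled. Symbols came from the platform's annotation, updated through Entrez numbers to GRCm38.p6 (34945 probe sets had 1 gene, 932 several, 9160 none).

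The 64 controls were left out, log2 was taken, and probe sets with log2 of at least 4 on at least 4 arrays were kept (41409). SThdh111/111 minus SThdh7/7 was fitted over the whole table with limma 3.58.1 (R 4.3.3), lmFit and eBayes with an intensity trend, two-sided, calls at an adjusted p under 0.05. The fit was tested on simulated data. The number of arrays limits the precision.

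Members and lists were chosen with earlier results of these data known. The rule for naming took every called member, the catalytic subunits, the Psme genes and the 2 uncalled members nearest the threshold, Psmd4 and Psmd9, plus called genes of the lists. A few others, Psmc2, Psmd7 and Psmd10 and second probe sets, were named after their values were seen, as were the bright-gene thresholds of 9 and 11. Alternatives changed the filter, the scaling, the trend, the array weights, the replicate block, the arrays used and the choice of probe set.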

Additional observations from a re-analysis of the deposited data

Results flagged for a closer look

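In 7 of 74 groups of 4 arrays, 1 array lay far from the other 3 relative to the group's range (Dixon's 95% criterion), and chance alone gives about 1 in 20. SThdh111/111 sample 2 was high in Psmc3, at 12.08 against 12.03 to 12.04 in the others. The other 6 were SThdh7/7 arrays, each below its fellows. Sample 1 was at 13.44 in Psmb7 (others 13.53 to 13.54) and at 12.32 in Psmc3 (others 12.41 to 12.43). Sample 2 was at 11.74 in Psmd1 (others 11.95 to 11.97) and at 9.92 in Psmd10 (others 10.16 to 10.18). Sample 4 was at 12.87 in Psmd2 (others 12.92 to 12.93) and at 12.35 in Psmd11 (others 12.47 to 12.48). Most of these gaps are small, and the close agreement of the other arrays makes them stand out. Psmc3, Psmd1, Psmd2 and Psmd11 were called lower in SThdh111/111 with each of these arrays left out in turn.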

How the results depend on the processing

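Of 22 called members, 20 lost the call in at least 1 of the 21 alternatives. Psmd14 and Psme1 kept direction and call under each alternative that gave them a value, 20 for Psmd14 and 21 for Psme1. Each has 1 kept probe set, so averaging probe sets could not change their difference. With centring on array medians and the 2 changes of probe set choice set aside, 13 kept the call, 11 of them lower: Psma3, Psmc3, Psmc6, Psmd1, Psmd2, Psmd5, Psmd6, Psmd8, Psmd13, Psmd14 and Psme4, with Psmb1 and Psme1 higher. The alternatives set aside cost many calls, so this count is a lenient one. Centring weakened 18 members, averaging probe sets weakened 10 and reversed 2, and leaving out probe sets by name ending weakened 3 and reversed 2. Psmd6 and Psmb1 were among those reversed. Quantile normalization left 2 members higher, with medians of -0.14 (core) and -0.43 (Psmd). Centring on array medians left 2 higher, 2 lower and 2 probe sets lower, with medians of 0.13 (core, reversed), -0.19 (base) and -0.18 (Psmd), and 4 pathway genes lower. Without the intensity trend 2 members were higher and 12 lower, and 5 pathway genes lower. Without SThdh7/7 samples 1 and 2, 2 were higher, and with centring as well 2 were higher and the base median was -0.42. Averaging a gene's probe sets left 10 lower, a Psmd median of -0.21, an activator median of -0.37 (reversed) and 5 pathway genes lower, and it turned Psma6 to -0.39 and Psmd6 to 0.77. Those 10 are 27.0% of the members, near the 25.5% of genes with a mean of at least 9 and the 29.1% at 11. In the regulatory particle 7 of 17 genes were then lower (41.2%) and 2 higher. Leaving out probe sets with _x_at, _s_at or _a_at names gave 3 probe sets higher and a Psmd median of -0.45, and turned Psmb1 to -0.42 and Psmd11 to 0.20. Leaving out 1 sample at a time gave 2 to 4 members higher, 16 to 19 lower, 4 to 6 probe sets higher and 20 to 24 lower, and activator medians of -0.41 to 0.13; the negative ones came without SThdh111/111 sample 1 (Psme3 -0.39) or 3 (Psme3 -0.41), where another Psme3 probe set was the brightest. Beyond these constructions the cause was not tested. The sample numbers did not pair the arrays (correlations of same-numbered samples' deviations -0.014 to 0.0090), and with them as a replicate block 3 members were higher and 18 lower, Psmd3 losing its call. Counts without the trend, by name ending, with 1 sample left out or with the replicate block have no share over all genes beside them. These counts only describe the members and lists. Signal over background limits 19 kept probe sets that were below the floor on at least 1 array.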
